A study of Mus musculus with 12 samples.

Results

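The 26 genes described here encode the machinery of GABA and glycine transmission. They are the enzymes that make and break down GABA, the transporters that load and recover both transmitters, the glycine, GABA-A and GABA-B receptor subunits, the postsynaptic scaffold and adhesion proteins, and a pair of chloride transporters. They were named as a list and matched by symbol, and all 26 were found among the 33906 gene identifiers of the deposited tables. All 26 also passed the filter on low values, as did 18119 genes in all.

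Poly(A) RNA was sequenced from lumbar spinal cords of 12 mice, 3 in each of 4 groups. Group H (mice H1, H2, H4) was healthy and wild type. The other groups modelled amyotrophic lateral sclerosis (ALS), a paralytic disease in which motor neurons are lost. Group P (mice P66, P67, P74) was given phosphate-buffered saline, group C (mice C79, C84, C85) was given manganese-doped carbon dots, a nanozyme with superoxide dismutase-like activity, and group E (mice E75, E77, E90) is taken here to be the edaravone group. Edaravone, an ALS drug, is described in the series under a letter D that no sample carries, so this reading of E rests on elimination. The sources used here do not give the strain or transgene of the model, the age or sex of the mice, or the dose and duration of treatment. Each number marks a separate mouse, and P, C and E all carry the disease model, so no group shows a treatment in healthy mice.

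GABA and glycine are the fast inhibitory transmitters of the spinal cord, and many of its inhibitory interneurons release both. Glycine and GABA-A receptors are chloride channels, and the low chloride inside mature neurons, maintained by extrusion, makes their opening inhibitory, while GABA-B receptors signal through G proteins. In the ventral horn, glycinergic input from Renshaw cells and other interneurons restrains motor neurons.

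The RefSeq promoter windows of 4 members are printed. Against H, Glrb fell in P and E but did not pass in C, and Gabra2 and Gabrb1 rose in P and E but did not pass in C. Gabra2 and Gabrb1 lie in a receptor gene cluster on chromosome 5 with Gabrg1, which did not pass. The 4 listed members of that cluster all had higher mean values in P than in H. Each window runs 5′ to 3′ on the strand of the gene from 250 bases before the transcription start to 50 bases after it (RefSeq, build GRCm38.p6). Capitals mark matches, on either strand, to a GC box, a CCAAT box or a piece of the RE1 element of neuronal genes, each spelled out after the sequences. The windows are chr3:80913611-80913910 on the minus strand for Glrb, chr5:71095800-71096099 on the minus strand for Gabra2, chr5:71657671-71657970 on the plus strand for Gabrb1 (the first of its 2 windows) and chr5:70842568-70842867 on the minus strand for Gabrg1.
Glrb: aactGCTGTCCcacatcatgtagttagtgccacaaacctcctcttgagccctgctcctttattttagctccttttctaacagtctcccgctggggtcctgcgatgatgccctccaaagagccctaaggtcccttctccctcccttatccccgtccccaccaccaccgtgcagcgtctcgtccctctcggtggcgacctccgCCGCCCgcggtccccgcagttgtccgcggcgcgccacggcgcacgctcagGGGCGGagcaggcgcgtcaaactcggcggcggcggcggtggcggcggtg
Gabra2: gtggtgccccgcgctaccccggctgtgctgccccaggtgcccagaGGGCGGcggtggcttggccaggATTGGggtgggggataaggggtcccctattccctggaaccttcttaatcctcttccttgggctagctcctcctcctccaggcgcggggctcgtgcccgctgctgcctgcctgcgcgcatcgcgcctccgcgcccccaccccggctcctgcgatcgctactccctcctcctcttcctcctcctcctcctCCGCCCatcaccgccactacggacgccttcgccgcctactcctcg
Gabrb1: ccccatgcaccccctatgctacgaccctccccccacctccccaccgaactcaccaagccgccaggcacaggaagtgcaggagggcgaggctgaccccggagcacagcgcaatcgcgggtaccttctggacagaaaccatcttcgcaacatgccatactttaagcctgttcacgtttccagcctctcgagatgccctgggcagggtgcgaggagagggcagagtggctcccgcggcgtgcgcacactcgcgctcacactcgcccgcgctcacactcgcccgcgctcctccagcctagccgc
Gabrg1: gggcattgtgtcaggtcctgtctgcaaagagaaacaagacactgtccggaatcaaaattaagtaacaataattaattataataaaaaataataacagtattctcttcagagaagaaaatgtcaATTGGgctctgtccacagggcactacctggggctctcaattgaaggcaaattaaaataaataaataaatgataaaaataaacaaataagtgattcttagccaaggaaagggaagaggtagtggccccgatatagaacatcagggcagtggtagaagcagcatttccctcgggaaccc

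The Glrb window held 1 RE1 piece and 2 GC boxes, and the Gabra2 window held 2 GC boxes and 1 CCAAT box. The Gabrg1 window had 1 CCAAT box and the lowest GC content of the 4, at 38.3%, against 65.7% for Glrb, 66% for Gabrb1 and 70% for Gabra2. No motif searched for was found in the Gabrb1 window shown. The table held windows for 22 of the 26 members (30 windows). Glra1, Gabrd, Abat and Slc12a2 were not among them. GC boxes, GGGCGG, were present in 16 of the 30 member windows (15 members) and in 35.7% of all 32851 windows. The RE1 piece, GGACAGC, occurred in 4 of the 30 (Gad2, Glra2, Glrb and Slc6a9) and in 6.56% of all windows, and CCAAT in 10 of the 30 (9 members) and in 37.4% of all windows. TATAAA was present in 5 of the 30 (4 members) and in 13.6% of all windows, the NRF1 core GCATGCGC in 1 (the other window of Gabrb1) and in 2.71% of all windows, and the cAMP response element TGACGTCA in 0 and in 1.79% of all windows. The motifs were picked after the windows had been read, no matches overlapped in the windows shown, and a match is a description of the letters only. Median GC content was 60.2% over the members' windows and 52.7% over all windows.

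The deposited values are FPKM, reads or fragments per kilobase of exon scaled to library size. The reads recovered from them came to 16.8 to 19.8 M per library. Values of members are levels in FPKM, listed for each group in the order of its mice given above, and every log2 difference is of log2(FPKM + 1) with its standard error. Tests were made with limma over all 18119 tested genes, with 1 mean per group, and a member was said to rise or fall only at a Benjamini-Hochberg adjusted p under 0.05. Before the results, 3 libraries need mention. Among the healthy mice, H4 had the lowest mean log2 level of the 12 motor neuron genes (2.99, against 3.86 in H1 and 3.66 in H2). H4 was also lowest for the 8 tested caudal Hox genes, which mark position along the cord (0.357, against 1.88 and 1.47). Among the saline-treated ALS mice, P66 had the lowest mean log2 level of the 20 general neuron genes of all 12 libraries (5.996, against 6.35 in P67 and 6.56 in P74), and P74 had the highest caudal Hox level of its group (2.74). Skeletal muscle genes also varied, with mean log2 levels of 7.61 in H1, 4.33 in H2, 2.13 in H4 and 0.887 to 3.81 in the ALS model libraries.

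The members spanned a wide range of levels. Slc6a11, which encodes the GABA transporter GAT-3 of astrocytes, had the highest median over the 12 libraries, 80.7 FPKM. It was followed by Abat (75.1 FPKM), Slc12a5 (67.7 FPKM), Glrb (66.6 FPKM) and Gabbr1 (63.9 FPKM). These were the 5 members with a median above 60 FPKM, and their ranges over libraries overlapped. At the other end, 7 members had medians below 5 FPKM, the lowest being the extrasynaptic GABA-A subunit gene Gabrd at 0.314 FPKM, which rests on 9 to 27 recovered reads per library. Glra1 was among the 7 (3.88 FPKM).

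**Figure D1:**
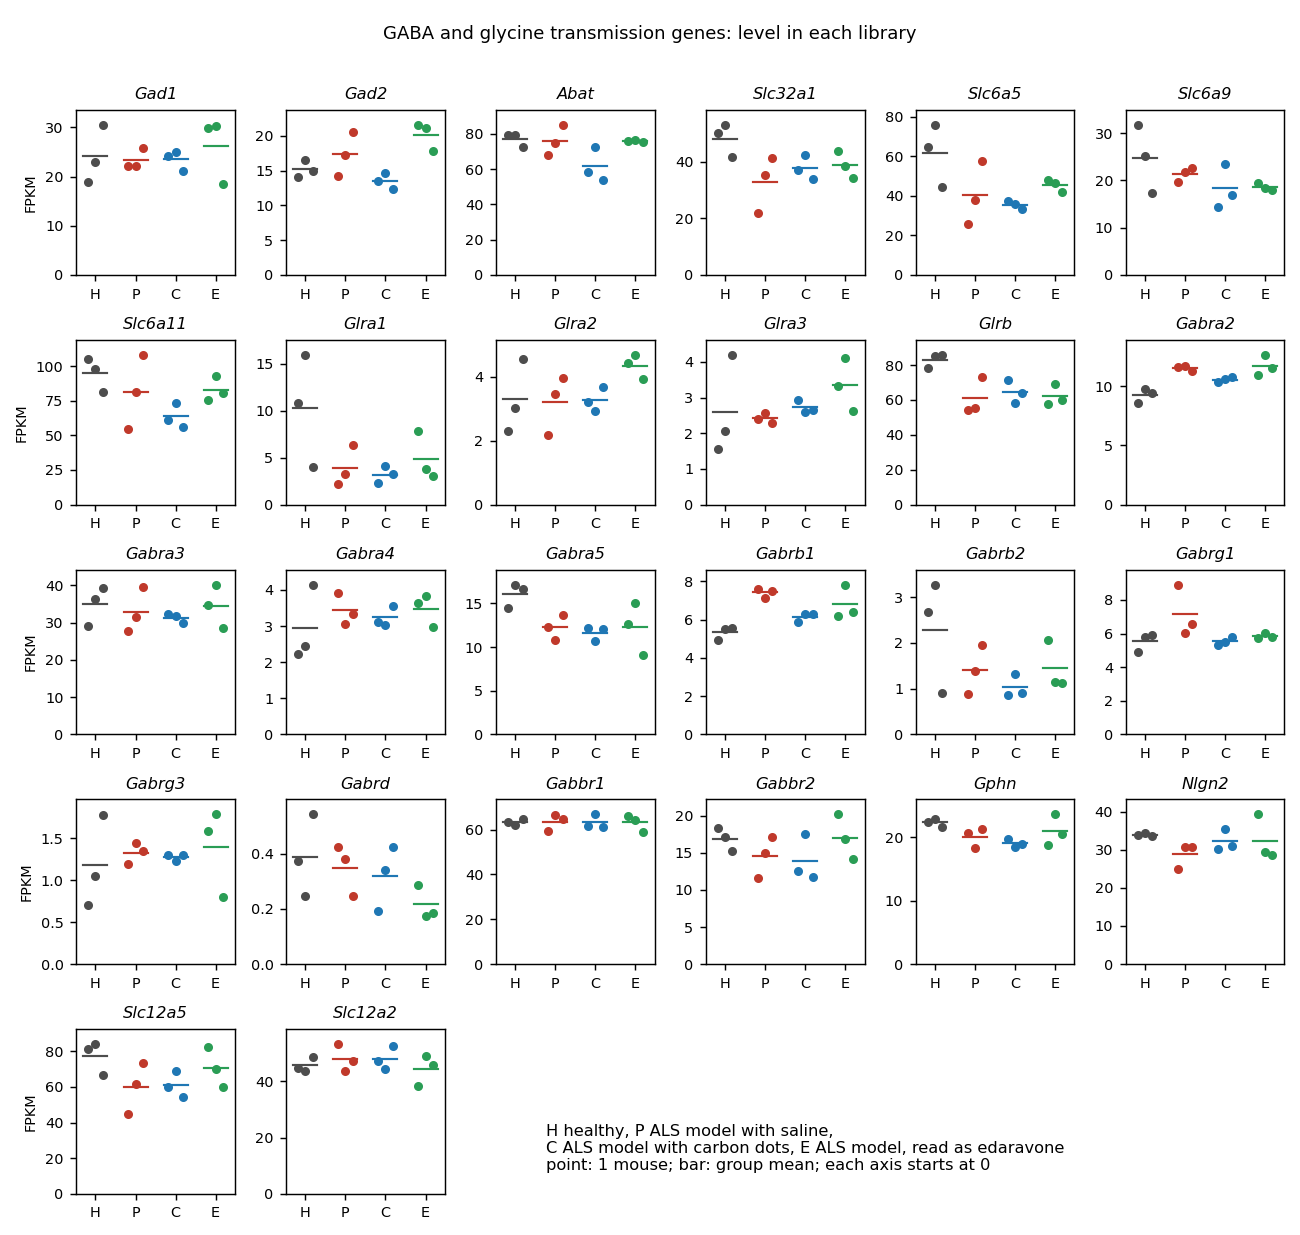
Level of each of the 26 genes in FPKM (vertical axis, starting at 0) in the 12 libraries, by group: H healthy, P ALS model with saline, C ALS model with carbon dots, E ALS model read as edaravone. Points are single mice and bars are group means; Glrb in H (78.1 to 85.8 FPKM) lies above all ALS model libraries (54.5 to 73.1 FPKM), while most other genes overlap between groups.

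Saline-treated ALS mice against healthy mice showed what differed with the disease model. Of the 26 members, 2 rose (Gabra2 and Gabrb1) and 1 fell (Glrb), while 12.2% of all tested genes rose and 3.26% fell. A count of 3 in 26 is thus near the share seen over the whole transcriptome. The members' median log2 difference was -0.06, beside 0.07 over all tested genes. Of the members, 18 had a difference below 0 and 8 above. Relative to the general neuron list 3 were below 0 and 23 above, but that setting adds the same positive amount to every gene. Its medians were 0.42 over the members and 0.55 over all tested genes. The libraries of P and H did not overlap for 3 members with higher values in P (Gabra2, Gabrb1 and Gabrg1) and for 5 with lower values (Gabra5, Glrb, Gphn, Nlgn2 and Slc32a1), and over all genes for 26.4% and 8.88%. Scaling by median ratios changed the balance over all genes, with 53.4% of called genes higher in place of 78.9%.

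None of the 3 genes of GABA synthesis and breakdown passed between H and P. Gad1 encodes GAD67, which makes most GABA, and stood at 18.8, 23.0 and 30.5 FPKM in H and at 22.2, 22.2 and 25.7 FPKM in P. The P libraries lay within the range of the H libraries, and the log2 difference was -0.02 ± 0.19 (adjusted p = 0.961). Gad2 encodes GAD65, the form attached to synaptic vesicles, and was measured at 14.1, 16.6 and 14.96 FPKM in H and at 14.2, 17.2 and 20.5 FPKM in P. These ranges overlapped (0.17 ± 0.13, adjusted p = 0.383). Abat encodes GABA transaminase, the enzyme that degrades GABA, with 72.6 to 79.7 FPKM in H and 68.3 to 84.9 FPKM in P (-0.03 ± 0.12, adjusted p = 0.895).

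Genes of glycine and GABA release and recovery had lower mean values in P and did not pass. Relative to the general neuron list Slc32a1 (-0.10) and Slc6a5 (-0.16) stayed below 0 while Slc6a9 (0.31) and Slc6a11 (0.21) were above it. Each was below the median of 0.55 over all tested genes in that setting. Slc32a1 encodes the vesicular transporter that loads both transmitters. Its levels were 50.1, 52.9 and 41.6 FPKM in H and 22.0, 35.3 and 41.2 FPKM in P. The groups just failed to overlap, H4 and P74 being nearly equal and P66 the lowest of all libraries. The log2 difference was -0.58 ± 0.19 with an adjusted p of 0.0634. Leaving out P74 gave -0.76 and an adjusted p of 0.0182, and leaving out P66 gave -0.32 and 0.209. It also passed under median-ratio scaling (-0.69, adjusted p = 0.0382) and with the caudal Hox level as a covariate (-0.76, adjusted p = 0.0159).

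Slc6a5 encodes GlyT2, the glycine transporter of glycinergic terminals, and was found at 64.7, 75.8 and 44.5 FPKM in H and at 25.9, 37.7 and 57.6 FPKM in P. H4 was below P74, so the groups overlapped, and the difference of -0.64 ± 0.24 did not pass (adjusted p = 0.0946). It passed without H4 (-0.85, adjusted p = 0.0429) and without P74 (-0.92, adjusted p = 0.011), the libraries named above for their motor neuron and Hox levels. With the caudal Hox level as a covariate the difference was -0.95 (adjusted p = 0.0062). Of 14 alternatives it passed in these 3 only. Apart from the setting relative to the general neuron list, differences ran from -0.95 to -0.36, and adjusted p over all 14 reached 0.377. Slc6a9, which encodes the mainly glial glycine transporter GlyT1, had 17.4 to 31.7 FPKM in H and 19.7 to 22.7 FPKM in P (-0.16 ± 0.20, adjusted p = 0.598). Slc6a11 had 81.3 to 104.9 FPKM in H and 54.7 to 108 FPKM in P (-0.26 ± 0.21, adjusted p = 0.396), with both the lowest and the highest value of these groups in P.

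Among the glycine receptor genes, Glrb fell. It encodes the beta subunit, which anchors the receptor to the scaffold protein gephyrin, and lies at chr3:80843599-80913660 on the minus strand. Its levels were 78.1, 85.2 and 85.8 FPKM in H, 54.5, 55.5 and 73.1 FPKM in P, 71.3, 58.2 and 64.2 FPKM in C, and 57.9, 69.0 and 59.8 FPKM in E. All 9 ALS model libraries lay below all 3 healthy ones. From 83.0 ± 4.26 FPKM (SD, n = 3) in H, the mean fell by 26.5% to 61.1 ± 10.5 FPKM (SD, n = 3) in P, a log2 difference of -0.45 ± 0.13 (95% CI -0.72 to -0.18, adjusted p = 0.0334). The call was lost without H2 (adjusted p = 0.106), H4 (0.0706), P66 (0.132) or P67 (0.116), with no filter (0.071) and with only the groups compared (0.0831). The 20 general neuron genes had a median difference of -0.51 between the same groups, and relative to the mean of that list the Glrb difference was 0.03. In whole tissue, fewer cells of a type and less RNA per cell cannot be told apart.

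Glra1, which encodes the main alpha subunit of the adult glycine receptor, had the widest spread. Levels were 10.9, 15.9 and 3.98 FPKM in H, 2.23, 3.27 and 6.33 FPKM in P, 2.28, 4.07 and 3.22 FPKM in C, and 7.83, 3.78 and 3.06 FPKM in E. H1 and H2 were above every ALS model library, and H4 was within their range. Its residual SD within groups, 0.639 on the log2 scale, exceeded that of 99.1% of tested genes, beside a median of 0.143. The difference P minus H of -1.10 ± 0.45 did not pass (adjusted p = 0.118). Without H4 it was -1.61 with an adjusted p of 0.0242, and with the caudal Hox covariate it was -1.45 with an adjusted p of 0.0497. Of 14 alternatives it passed in these 2 only. Apart from the setting relative to the general neuron list, differences ran from -1.61 to -0.72, and adjusted p over all 14 reached 0.353. Motor neuron genes were also lower: 5 of 12 fell and none rose in P, with a median difference of -0.75, and their mean log2 level was 2.99 to 3.86 in H and 2.28 to 3.01 in P. Their part in the Glra1 values was not tested.

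Glra2 and Glra3 were highest in H4 among the healthy mice, where Glra1 was lowest. Glra2, which encodes the alpha subunit that prevails before birth, was at 2.29 and 3.01 FPKM in H1 and H2 and at 4.57 FPKM in H4, and at 2.19 to 3.98 FPKM in P (-0.02 ± 0.19, adjusted p = 0.966). Glra3, whose product is a glycine receptor subunit of the dorsal horn, was at 1.57 and 2.06 FPKM in H1 and H2 and at 4.20 FPKM in H4, and at 2.29 to 2.58 FPKM in P (-0.01 ± 0.21, adjusted p = 0.988). Of the summed FPKM of the 3 alpha genes, Glra1 held 73.8% in H1, 75.9% in H2 and 31.2% in H4, against 32.7 to 50.3% in P. All 4 glycine receptor genes had differences below 0. Relative to the general neuron list those of Glrb (0.03), Glra2 (0.46) and Glra3 (0.47) were above 0 and Glra1 alone stayed below. That setting adds the same positive amount to every gene, and its median over all tested genes was 0.55.

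The 9 GABA-A receptor genes divided by gene. Gabra2 and Gabrb1 rose, none fell, and 5 of the 9 had differences above 0. The other 4 were below 0, and relative to the general neuron list they were above it (Gabra3 0.39, Gabra5 0.11, Gabrb2 0.08 and Gabrd 0.44). Each of these values was below the median of 0.55 over all tested genes in that setting. Gabrg1, Gabra2, Gabra4 and Gabrb1 lie in a cluster on chromosome 5, within 1398 kb at chr5:70751047-72149037 (GENCODE M21, GRCm38), and all 4 had higher mean values in P than in H. The 4 differences stayed above 0 under median-ratio scaling, where the median over all tested genes was -0.0014 in place of 0.07. Relative to the general neuron list they could not fall below 0, because that setting adds the same positive amount to every gene.

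Gabra2 encodes an alpha subunit of synaptic GABA-A receptors and lies at chr5:70957597-71095849 on the minus strand. It was measured at 8.57, 9.77 and 9.41 FPKM in H, at 11.6, 11.7 and 11.3 FPKM in P, at 10.3, 10.6 and 10.8 FPKM in C, and at 10.9, 12.6 and 11.5 FPKM in E. All 9 ALS model libraries were above the healthy range. The mean rose by 24.8% from 9.25 ± 0.617 FPKM (SD, n = 3) in H to 11.54 ± 0.245 FPKM (SD, n = 3) in P, a log2 difference of 0.29 ± 0.08 (95% CI 0.13 to 0.46, adjusted p = 0.0247). Its spread within groups was among the smallest, with a residual SD of 0.0686 that exceeded that of 5.65% of tested genes. The call was lost under median-ratio scaling (0.19, adjusted p = 0.107), with only the groups compared (adjusted p = 0.0786) and without H1 (adjusted p = 0.073), P66 (0.0799) or P67 (0.0804).

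Gabrb1, at chr5:71658113-72149037 on the plus strand, encodes a beta subunit of the same receptor family. Its levels were 4.94, 5.49 and 5.56 FPKM in H, 7.61, 7.15 and 7.51 FPKM in P, 5.86, 6.30 and 6.31 FPKM in C, and 6.21, 7.83 and 6.38 FPKM in E. No ALS model library reached down to the healthy range, and P also lay above C throughout. The mean rose by 39.3% from 5.33 ± 0.343 FPKM (SD, n = 3) in H to 7.42 ± 0.245 FPKM (SD, n = 3) in P (0.41 ± 0.09, 95% CI 0.22 to 0.61, adjusted p = 0.0117). This call held in 14 of 14 alternatives, with adjusted p from 0.00143 to 0.0495. Of these, the setting relative to the general neuron list called 73.5% of all tested genes higher, so passing there adds little. Gabrb1 and Gabra4 overlap head to head by 196 bases, and 10 of the 26 members overlap another annotated gene. The sources used here do not say whether counting used strand, so reads from such overlaps cannot be told apart.

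Gabrg1, which encodes a gamma subunit, was at 4.88, 5.82 and 5.90 FPKM in H and at 8.91, 6.01 and 6.57 FPKM in P. The groups did not overlap, with P66 well above the rest, and the difference of 0.31 ± 0.12 did not pass (adjusted p = 0.0946). Without P66 it was 0.16 (adjusted p = 0.328), and with the caudal Hox covariate it passed (0.43, adjusted p = 0.0163). Gabra4 encodes an alpha subunit found mostly outside synapses and was at 2.21, 2.46 and 4.15 FPKM in H and at 3.93, 3.06 and 3.33 FPKM in P. H4 exceeded all 3 P libraries, and the difference was 0.20 ± 0.16 (adjusted p = 0.412). Without H4 it was 0.41 with an adjusted p of 0.0461. Apart from the setting relative to the general neuron list, Gabra4 passed in no other alternative, and its differences ran from 0.07 to 0.41. Astrocyte genes were also higher in P, where 7 of 12 rose and none fell (median 0.45), and so were microglia genes, where 11 of 12 rose and none fell (median 1.81). Summed over each list, astrocyte genes were at 1735 to 1796 FPKM in H and 2637 to 3813 FPKM in P, and microglia genes at 144.3 to 195.1 FPKM in H and 504.9 to 1085 FPKM in P, with 0 genes of either list at 0 in all libraries. Their part in the chromosome 5 values was not tested.

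Gabra5 encodes the alpha subunit of many extrasynaptic receptors, at chr7:57407672-57510059. It was at 14.4, 17.1 and 16.7 FPKM in H, 12.3, 10.8 and 13.7 FPKM in P, 12.2, 10.7 and 12.05 FPKM in C, and 12.7, 15.05 and 9.07 FPKM in E. P and C lay below the healthy range and E77 within it. The difference P minus H of -0.37 ± 0.15 did not pass (adjusted p = 0.113). Gabra3, the most abundant alpha gene of the list, ranged from 29.1 to 39.2 FPKM in H and from 27.7 to 39.5 FPKM in P (-0.09 ± 0.15, adjusted p = 0.727). Within the summed FPKM of Gabra2, Gabra3, Gabra4 and Gabra5, the Gabra2 share was 14.7% ± 1.12 in H and 19.4% ± 2.37 in P, and the Gabra5 share was 25.6% ± 1.36 in H and 20.4% ± 1.60 in P (SD, n = 3). The Gabra3 share was 55.1% in H and 54.4% in P. These shares were not tested.

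The remaining GABA-A genes were low. Gabrb2, a beta subunit gene, was at 2.68, 3.28 and 0.9003 FPKM in H and at 0.875, 1.38 and 1.96 FPKM in P. H4 again stood with the ALS model libraries, and the difference was -0.39 ± 0.28 (adjusted p = 0.345). Without H4 it was -0.75 (adjusted p = 0.0421), and it passed in none of the rest of the 14 alternatives. Apart from the setting relative to the general neuron list, differences ran from -0.75 to -0.16. Gabrg3, a gamma subunit gene, ranged from 0.709 to 1.77 FPKM in H and from 1.19 to 1.44 FPKM in P (0.12 ± 0.18, adjusted p = 0.679). Gabrd ranged from 0.247 to 0.543 FPKM in H and from 0.245 to 0.423 FPKM in P (-0.04 ± 0.09, adjusted p = 0.822), and at its read numbers a small change was not detectable.

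The GABA-B receptor works as a pair of subunits that signal through G proteins. Gabbr1, the subunit that binds GABA, was nearly level, at 62.1 to 64.7 FPKM in H and 59.4 to 66.7 FPKM in P (0.01 ± 0.08, 95% CI -0.17 to 0.19, adjusted p = 0.975). Its residual SD was 0.072. Gabbr2, the subunit that couples to the G protein, had 15.2 to 18.3 FPKM in H and 11.7 to 17.2 FPKM in P (-0.21 ± 0.17, adjusted p = 0.414).

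Both genes of postsynaptic proteins had lower mean values in P without passing. Relative to the general neuron list Gphn (0.33) and Nlgn2 (0.24) were above 0, but that setting adds the same positive amount to every gene. Its median over all tested genes was 0.55. Gphn encodes gephyrin, which clusters glycine and GABA-A receptors, and was at 22.4, 22.9 and 21.7 FPKM in H and at 20.7, 18.3 and 21.3 FPKM in P (-0.15 ± 0.09, adjusted p = 0.283). Nlgn2 encodes neuroligin-2, an adhesion protein of inhibitory synapses, and was at 34.0, 34.4 and 33.5 FPKM in H and at 25.1, 30.6 and 30.6 FPKM in P (-0.24 ± 0.12, adjusted p = 0.209). For both, every P library was below every H library, by a small margin for Gphn.

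The chloride transporters set the driving force of glycine and GABA-A receptors. Slc12a5 encodes KCC2, the neuronal chloride extruder, and was at 81.1, 84.1 and 66.5 FPKM in H and at 44.9, 61.9 and 73.7 FPKM in P. P74 lay within the healthy range and P66 far below it. The difference was -0.38 ± 0.18 (95% CI -0.77 to 0.01, adjusted p = 0.168). Leaving out 1 library moved it between -0.54 (without P74) and -0.18 (without P66). Relative to the general neuron list it was 0.10, where the median over all tested genes was 0.55. Slc12a2 encodes NKCC1, which imports chloride and is also made by glia, with 43.8 to 48.8 FPKM in H and 43.6 to 53.2 FPKM in P (0.06 ± 0.11, adjusted p = 0.736).

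**Figure D2:**
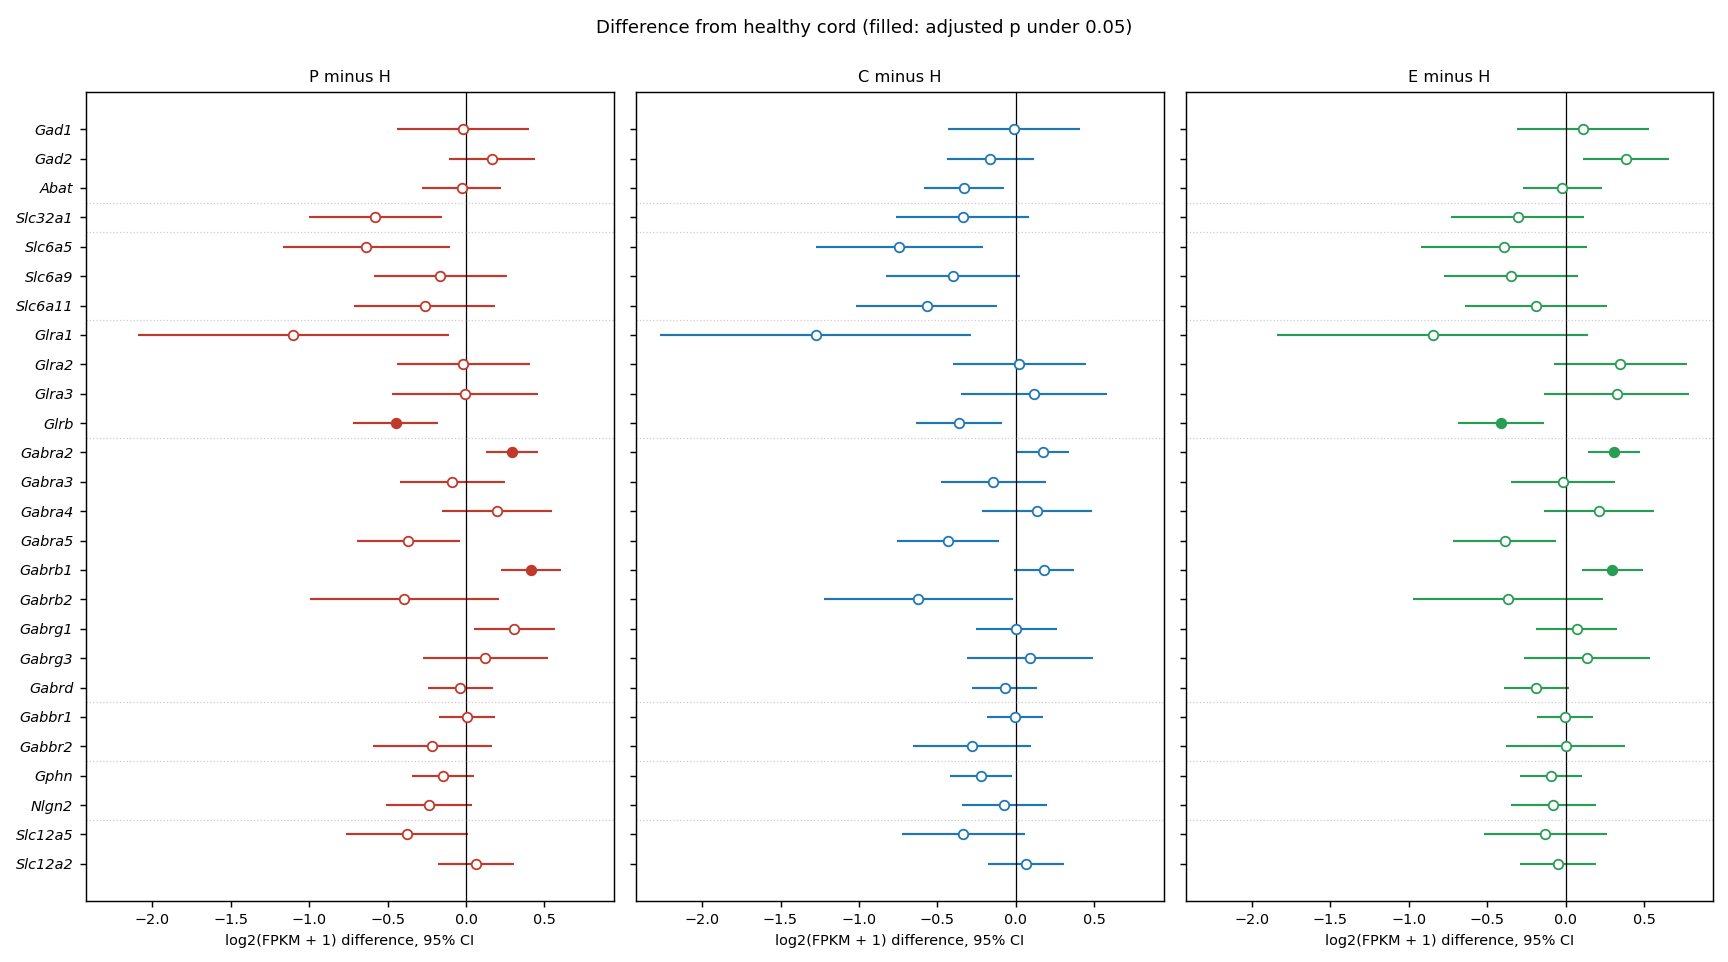
Difference of each gene from healthy cord on the log2(FPKM + 1) scale (horizontal axis) for P, C and E, with 95% confidence intervals from limma; filled points have an adjusted p under 0.05. Gabra2 and Gabrb1 are higher and Glrb lower with filled points in P and E and with none filled in C; relative to the general neuron list the Glrb difference in P is 0.03.

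Ratios of partner genes within a library were compared between P and H by an exact permutation test, two-sided, in which 3 against 3 libraries cannot go below p = 0.1. The ratio of Slc12a5 to Slc12a2 was 1.81, 1.92 and 1.36 in H and 0.843, 1.42 and 1.57 in P. Only P66 had less Slc12a5 than Slc12a2 by FPKM, and the groups overlapped (log2 difference -0.45, exact permutation p = 0.3, adjusted over 5 ratios p = 0.5). For Glra1 to Glrb the mean ratio was 0.124 ± 0.0716 in H and 0.0622 ± 0.023 in P (SD, n = 3, exact permutation p = 0.3, adjusted p = 0.5). For Gabbr2 to Gabbr1 it was 0.268 and 0.228 (exact permutation p = 0.2, adjusted p = 0.5), for Gad1 to Gad2 1.59 and 1.37 (exact permutation p = 0.5, adjusted p = 0.625), and for Slc6a5 to Slc32a1 1.26 and 1.22 (exact permutation p = 0.8, adjusted p = 0.8). None of the 5 reached the smallest p possible.

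**Figure D3:**
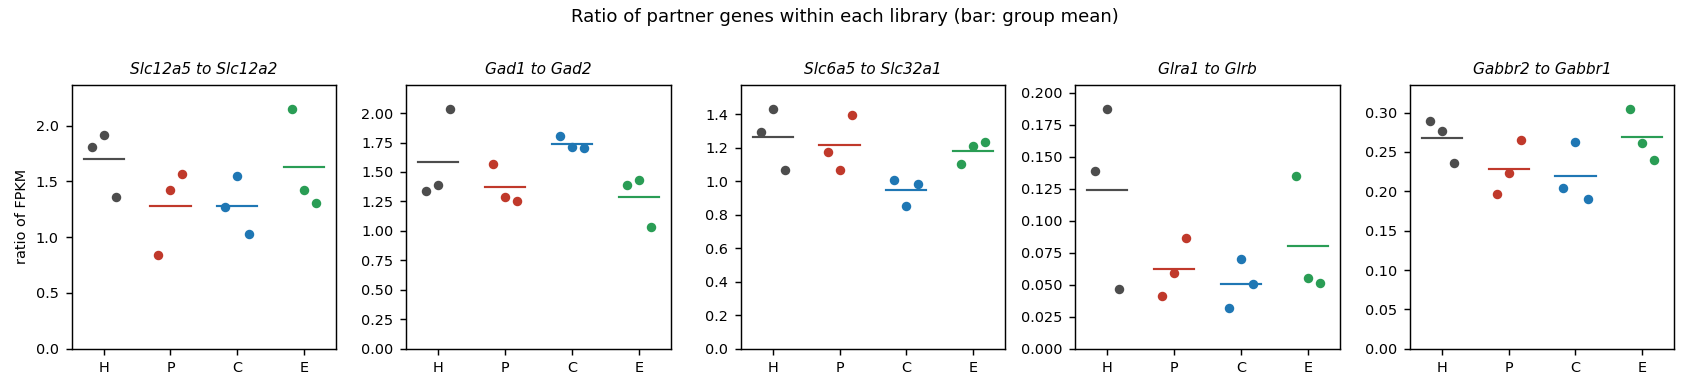
Ratio of the FPKM of partner genes within each library (vertical axis, starting at 0) by group (H healthy, P ALS model with saline, C with carbon dots, E read as edaravone); points are mice and bars group means. The groups overlap in the Slc12a5 to Slc12a2 panel, where P66 is lowest at 0.843, and H4 lies with the ALS model libraries in the Glra1 to Glrb panel at 0.0464.

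Other genes of the pathway were taken from lists. Of 25 tested other inhibitory synapse genes, 3 fell and 1 rose in P (median -0.10). The shares over all tested genes, 3.26% lower and 12.2% higher, are the background for this and the next lists. Lhfpl4, which helps to place GABA-A receptors at synapses, fell (-0.53 ± 0.14, adjusted p = 0.0298) from 19.1, 22.9 and 23.1 FPKM in H to 11.3, 15.6 and 17.7 FPKM in P. Gabarapl2, of a family of receptor trafficking and autophagy proteins, also fell (-0.54 ± 0.16, adjusted p = 0.0396), and Kctd12, an auxiliary subunit of GABA-B receptors, rose (0.77 ± 0.23, adjusted p = 0.0432). Lhfpl4 and Gabarapl2 did not overlap between H and P.

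Among 24 genes of GABA and glycine metabolism and uptake, 3 rose and none fell (median 0.02), a share that rose near that of all genes. Gldc, which encodes the glycine-cleaving decarboxylase, rose (0.57 ± 0.11, adjusted p = 0.00735) from 1.08, 0.712 and 0.770 FPKM in H to 1.84, 2.00 and 1.44 FPKM in P. Maob, a monoamine oxidase of astrocytes that takes part in GABA synthesis from putrescine, rose by 0.41 ± 0.10 (adjusted p = 0.0189), and the glutamine transporter gene Slc38a1 by 0.40 ± 0.11 (adjusted p = 0.0295). Among 19 genes of chloride transport and its kinases, 4 rose and 1 fell (median 0.03). Neto2, whose product binds KCC2, rose by 0.72 ± 0.18 (adjusted p = 0.0225), Slc12a4, which encodes the widely expressed transporter KCC1, by 0.64 ± 0.16 (adjusted p = 0.0233), and the carbonic anhydrase gene Car2 by 0.37 ± 0.10 (adjusted p = 0.0307).

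Transcription factors and peptides of inhibitory interneurons did not pass in P, with 0 of 22 tested genes higher or lower by limma (median -0.08) and 5 at an unadjusted p under 0.05, which 32.7% of all tested genes reached. Of 14 excitatory neuron genes 0 passed (median -0.14), with 2 at an unadjusted p under 0.05. The mean log2 level of the inhibitory list was 1.82 to 2.20 in H and 1.80 to 1.99 in P. Over all tested genes 15.5% passed in either direction (12.2% higher and 3.26% lower), so 0 in each list is below that share. Whether the gap exceeds what lists of this size allow was not tested. Of 20 general neuron genes 12 fell and none rose, and the lists were not tested against each other. Of the other marker lists in P, 1 of 10 oligodendrocyte genes rose and 1 fell (median -0.17). Rises were seen in 2 of 9 Schwann cell genes (0.98) and 1 of 5 sensory ganglion genes (-0.18). They were also seen in 3 of 10 meningeal genes (1.22) and 2 of 8 ependymal genes (0.14). Of 10 skeletal muscle genes (-2.63) 1 fell, Pvalb (-1.42 ± 0.27 by limma, adjusted p = 0.00707). Pvalb was at 217, 132 and 95.6 FPKM in H and at 41.15, 47.1 and 71.6 FPKM in P. The cell type behind this fall was not tested. None of 8 caudal Hox genes (0.98) or 9 thoracic and rostral Hox genes (-0.03) passed by limma, with 1 and 2 at an unadjusted p under 0.05.

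**Figure D4:**
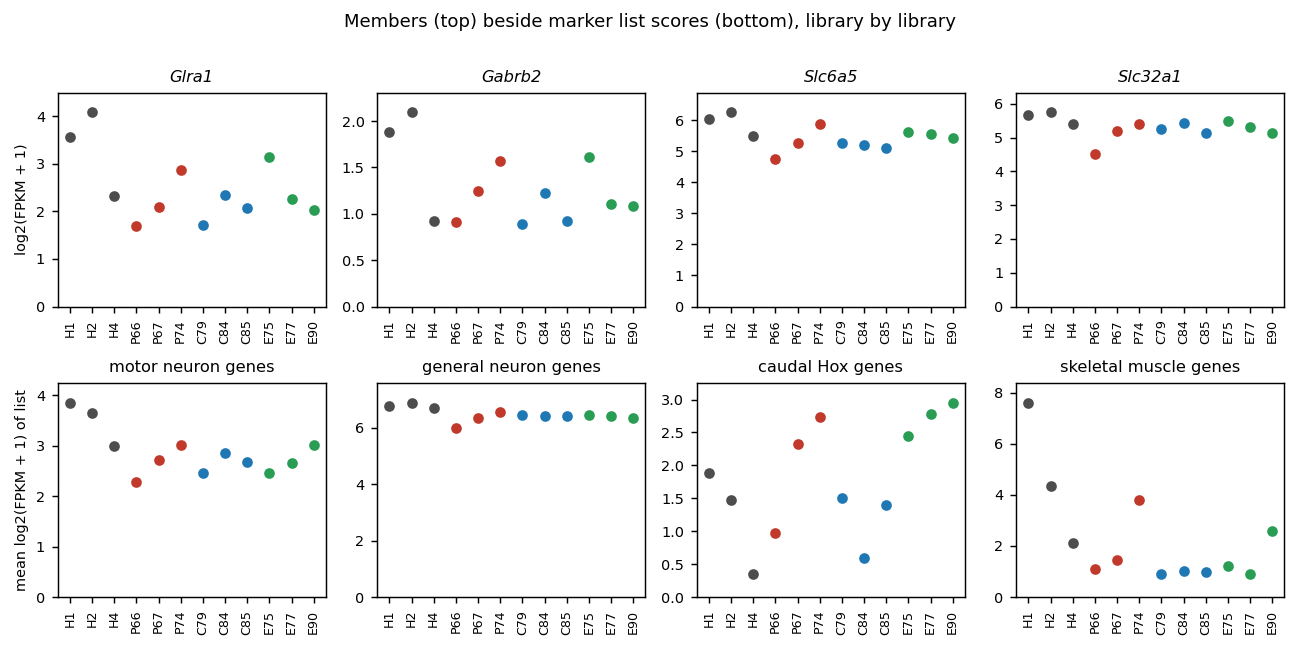
Level of Glra1, Gabrb2, Slc6a5 and Slc32a1 as log2(FPKM + 1) in each of the 12 libraries (upper row), and mean log2(FPKM + 1) of the motor neuron, general neuron, caudal Hox and skeletal muscle lists in the same libraries (lower row), gray for H, red for P, blue for C and green for E. H1 and H2 are highest for Glra1 and Gabrb2 and for the motor neuron list (3.86 and 3.66), while H4 is lower in each of these and has the lowest caudal Hox level (0.357).

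The comparisons with treated mice share libraries with the one above: those with H share its 3 libraries and those with P share its 3, so they are given as values side by side. In group E, Gabra2 rose (0.31 ± 0.08, adjusted p = 0.0205), Gabrb1 rose (0.30 ± 0.09, adjusted p = 0.0463) and Glrb fell (-0.41 ± 0.13, adjusted p = 0.0496) against H, where 11.0% of all tested genes rose and 2.15% fell. The Glrb difference relative to the general neuron list was -0.05. Without H1, or without E90, no member passed, while 10.7% and 6.4% of all tested genes did. Median-ratio scaling ended the Gabra2 (adjusted p = 0.11) and Gabrb1 (0.171) calls, as did the fit of the compared groups alone (0.0803 and 0.129) and the Hox covariate (0.0529 and 0.0739). No filter ended those of Gabrb1 (0.0864) and Glrb (0.0982), and the FPKM filter that of Glrb (0.0516). Of 14 alternatives the call held in 8 for Gabra2, 6 for Glrb and 5 for Gabrb1. For Gabra2 and Gabrb1 these include the setting relative to the general neuron list, which called 54.35% of all tested genes higher. The adjusted p over all alternatives ran from 0.0061 to 0.11 for Gabra2, from 0.00836 to 0.171 for Gabrb1 and from 0.0217 to 0.741 for Glrb. Gad2 was at 21.5, 21.1 and 17.9 FPKM in E, above the 14.1 to 16.6 FPKM of H, but did not pass (0.38 ± 0.13, adjusted p = 0.0646). The members' median difference from H was -0.04 in E, beside 0.08 over all genes. Marker lists also differed between E and H, where 7 of 9 Schwann cell genes (median 2.22) and 9 of 10 meningeal genes (2.18) rose. Of 10 oligodendrocyte genes 3 fell (-0.40), and of 20 general neuron genes 7 fell (-0.39). Their part in the values of E was not tested.

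In group C, no member passed against H by limma, while 7.25% of all tested genes rose and 1.06% fell. An unadjusted p under 0.05 was reached by 9 of 26 members and 25.8% of all tested genes. The count of members called by voom on recovered reads was also 0, beside 9.37% of all tested genes. The members' median was -0.15, beside 0.07 over all genes. Differences were -0.36 for Glrb (adjusted p = 0.0966), -0.43 for Gabra5 (adjusted p = 0.0959) and -0.74 for Slc6a5 (adjusted p = 0.0834). Slc6a5 was at 37.4, 36.1 and 33.4 FPKM in C, below all 3 healthy libraries. Without H4, 4 members passed with lower values in C (Glra1, Gabrb2, Slc6a9 and Slc6a5), beside 3.16% of all tested genes lower and 7.41% higher. Median-ratio scaling gave 2 calls, Gabra5 and Abat, both lower, beside 2.48% of all tested genes lower and 5.17% higher.

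With the mean of the 3 ALS model groups set against H, 2 members rose and 2 fell, beside 16.4% and 4.2% of all genes. Gabra2 rose by 0.26 ± 0.06 (adjusted p = 0.0131) and Gabrb1 by 0.30 ± 0.07 (adjusted p = 0.0148). Glrb fell (-0.41 ± 0.10, adjusted p = 0.0167), and so did Gabra5 (-0.40 ± 0.12, adjusted p = 0.0396), though relative to the general neuron list these differences were -0.0072 and 0.0045. Slc6a5 (-0.59 ± 0.20, adjusted p = 0.0547), Glra1 (-1.08 ± 0.37, adjusted p = 0.0604) and Slc32a1 (-0.41 ± 0.16, adjusted p = 0.0873) did not pass. All 3 passed without P74 and with the caudal Hox covariate, and Slc6a5 and Glra1 also without H4. Of 19 alternatives, Slc32a1 passed in 3, Slc6a5 in 4 and Glra1 in 4. Apart from the setting relative to the general neuron list, the weakest differences were -0.32 for Slc32a1, -0.43 for Slc6a5 and -0.70 for Glra1. The Gabra5 call was lost without any 1 of 8 libraries (H1, H2, H4, P66, P67, C79, C84 or C85), with no filter and with the caudal Hox covariate, and the Glrb call without H2 (adjusted p = 0.0811) or H4 (0.0503). The Gabra2 call was lost without H1 (adjusted p = 0.0691) and under median-ratio scaling (0.0919), and the Gabrb1 call without H1 (0.0717) or H2 (0.0522) and under median-ratio scaling (0.067). That scaling gave 0 members higher and 5 lower, beside 10.5% and 9.13% of all tested genes. The 5 were Glrb, Gabra5, Slc32a1 (-0.52, adjusted p = 0.0417), Slc6a5 (-0.70, adjusted p = 0.0329) and Gphn (-0.26, adjusted p = 0.0379).

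Treated and saline-treated ALS mice were compared to ask whether either agent changed these genes. For carbon dots, no member passed between C and P by limma, 4 had an unadjusted p under 0.05 (as did 9.95% of all tested genes), voom called none, and 0.00552% of all tested genes (1 gene) passed. These 4 were Gad2 (-0.33 ± 0.13), Abat (-0.30 ± 0.12), Gabrb1 (-0.23 ± 0.09) and Gabrg1 (-0.30 ± 0.12), with adjusted p of 0.43 to 0.435. Gad2 was at 13.4, 14.7 and 12.4 FPKM in C and Abat at 58.6, 72.6 and 53.9 FPKM, and both overlapped P. Gabrb1, Gabrg1 and Gabra2 lay lower in every C library than in every P library, and Glra3 higher, where 8.77% of all tested genes were lower and 8.33% higher in this way. The 95% confidence interval for Gabrb1 was -0.43 to -0.04 and that for Slc32a1, whose mean was higher in C, -0.18 to 0.66.

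For group E against P, no member passed by limma, 0 had an unadjusted p under 0.05 (4.91% of all tested genes did), voom called none, and 0.0% of all genes passed. Differences ran from -0.24 for Gabrg1 to 0.37 for Glra2, with adjusted p near 0.998 throughout. Glra2 was at 4.42, 4.68 and 3.93 FPKM in E and overlapped P. Its 95% confidence interval, -0.06 to 0.79, leaves room for a sizeable difference at 3 mice per group. For Gabra2 the interval was narrower, -0.15 to 0.18.

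The 2 treated groups were also set against each other. No member passed between C and E by limma or voom, 2 had an unadjusted p under 0.05 (as did 11.0% of all tested genes), and 0.171% of all tested genes (31) passed. Gad2 had the smallest p (-0.55 ± 0.13, adjusted p = 0.136), and its 3 C libraries (12.4 to 14.7 FPKM) were all below its 3 E libraries (17.9 to 21.5 FPKM). Abat was at 53.9 to 72.6 FPKM in C and at 75.4 to 76.6 FPKM in E (-0.31 ± 0.12, adjusted p = 0.376). Of the 26 members, 22 had lower mean values in C than in E, with a median of -0.13 beside -0.02 over all genes, and 15 with the caudal Hox covariate. Caudal Hox levels were 0.594 to 1.51 in C and 2.45 to 2.95 in E. With that level as a covariate the Gad2 difference was -0.42 (adjusted p = 0.543). As these levels did not overlap, group and caudal Hox level cannot be told apart in this comparison.

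**Figure D5:**
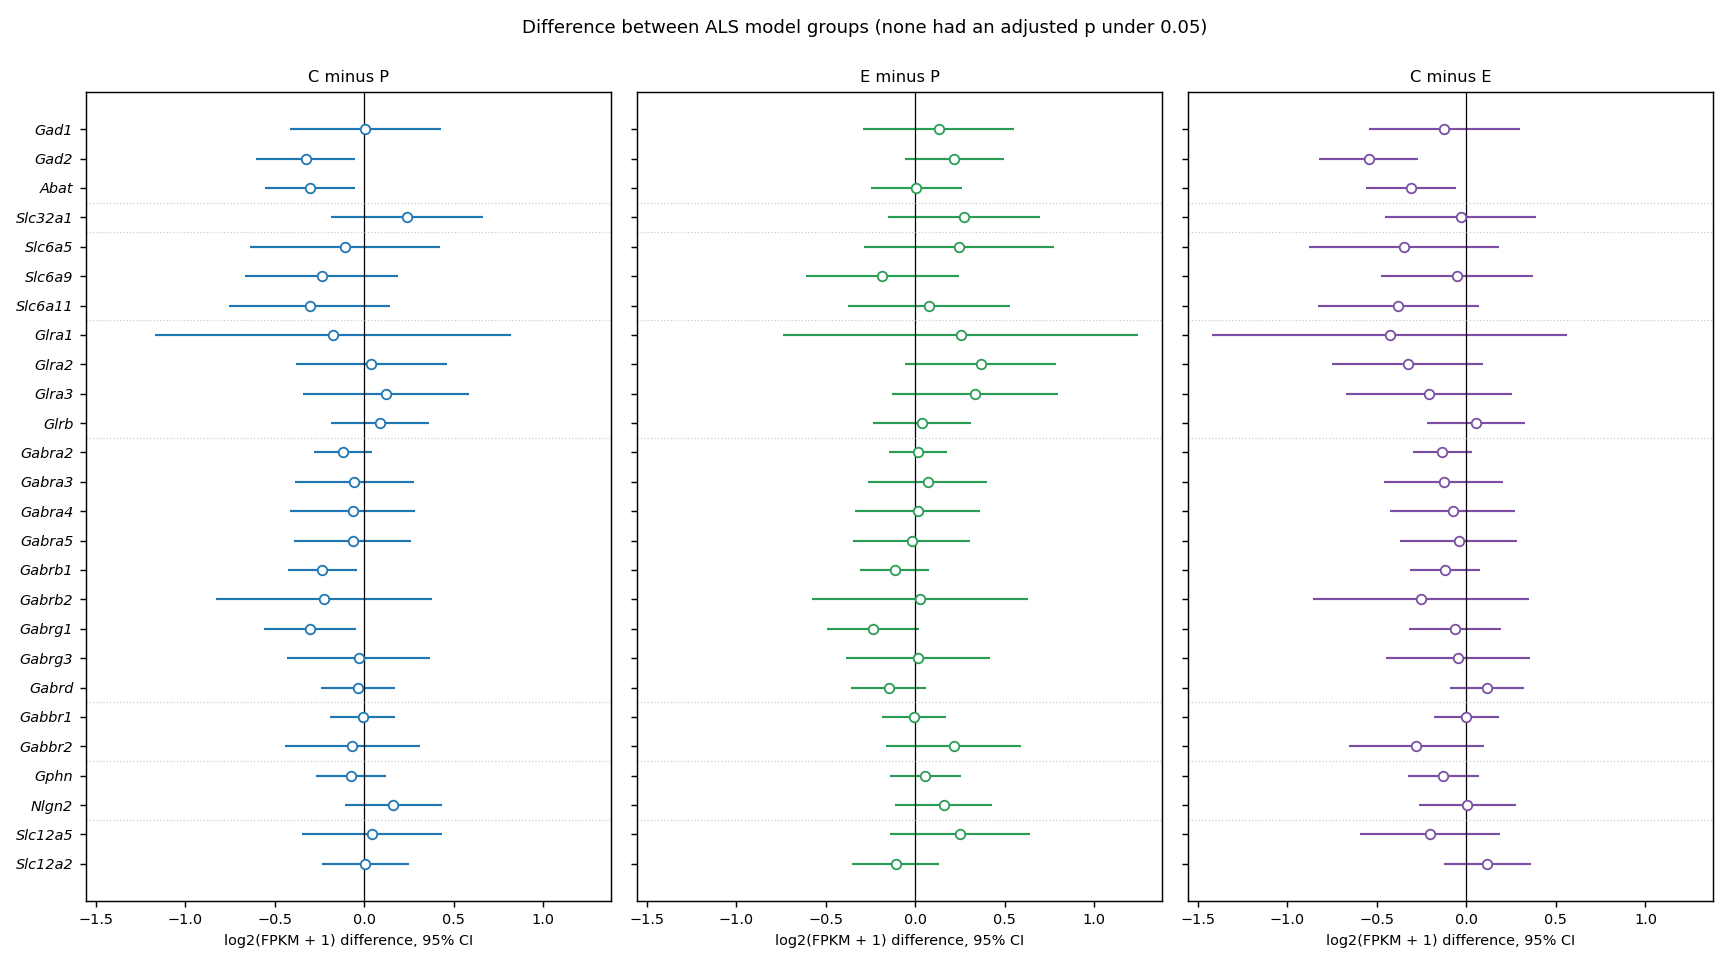
Difference of each gene between the ALS model groups on the log2(FPKM + 1) scale (horizontal axis) with 95% confidence intervals from limma: C carbon dots, E read as edaravone, P saline. No point has an adjusted p under 0.05, and the interval farthest from 0 is that of Gad2 in C minus E (-0.82 to -0.27).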

How the data were processed

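Total RNA was extracted with TRIzol and poly(A) RNA was sequenced, per the labels' protocols. cutadapt, HISAT2, featureCounts and build GRCm38 were used, per the submitters' processing notes, with versions and strand handling not given in the sources used here. The authors deposited 4 tables, 1 per group, whose unit was settled from the values as FPKM: multiplied by GENCODE M21 exon lengths, 95.2 to 95.7% of values of at most 50 reads were whole to within 0.02. Recovered reads came to 106.6 to 108% of the scaling totals (15.5 to 18.4 M), and the excess was not resolved. Symbols matched 33829 identifiers.

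Genes were tested if 3 or more libraries had the equivalent of 10 recovered reads at median depth, and all libraries 15 reads in sum. Tests were run on log2(FPKM + 1) with limma 3.58.1 (R 4.3.3), trended and robust, over all 12 libraries (8 residual degrees of freedom), with Benjamini-Hochberg adjustment over 18119 genes at 0.05, two-sided. That pseudocount of 1 understates changes of low genes. Scripts were tested on simulated data. Ratios were compared by exact permutation. All 26 members were named, with up to 3 genes of smallest adjusted p per list among those that passed. The members and the 17 gene lists were chosen with earlier results of these data known, so no list is independent support. Alternatives were another pseudocount (0.1), no filter, an FPKM filter, median-ratio scaling, voom, a fit of the compared groups alone, a caudal Hox covariate, levels relative to the general neuron list, and leaving out each library.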

Additional observations from a re-analysis of the deposited data

How the results depend on the processing

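Counts of members called moved with the setting. The share of all tested genes called is given in brackets. For P against H (3 as reported, 15.5%) the count was 1 with only the groups compared (8.12%) and 7 with the caudal Hox covariate (22.2%). It was 13 relative to the general neuron list (73.7%), and 1 to 6 when each library was left out (5.15 to 19.5%). For C against H (0, 8.31%) it was 2 with median-ratio scaling (7.65%), 2 with only the groups compared (8.75%) and 1 with the Hox covariate (10.55%). The count was 3 relative to the neuron list (49.4%), and 0 to 4 with a library left out (3.13 to 10.6%). For E against H (3, 13.2%) it was 1 with no filter (4.46%) and 1 with only the groups compared (9.66%). Relative to the neuron list it was 9 (54.7%), and with a library left out 0 to 4 (6.4 to 12.3%). For the mean of the ALS model groups against H (4, 20.6%) it was 8 with the Hox covariate (26.8%). Relative to the neuron list it was 14 (77.65%), and with a library left out 1 to 8 (8.58 to 23.7%). C against P, E against P and C against E gave 0 in every setting run, and the ratios moved by less than the replicate spread in every setting run.

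Over all genes, the neuron-relative setting shifted the median difference P minus H from 0.07 to 0.55, and 73.5% of genes were then called higher, so its calls are relative to that shift. It turned differences below 0 into differences above 0 for 15 of 18 members in P minus H, 12 of 18 in C minus H, 11 of 16 in E minus H and 11 of 16 in the mean of the ALS groups minus H. The reversed values that passed the test with or without this setting number 14. In P minus H they were Gad1 0.46, Abat 0.45, Glra2 0.46, Glrb 0.029, Gabra3 0.39 and Gabrd 0.44. In C minus H it was Gabbr1 0.36, and in E minus H Abat 0.34 and Gabbr1 0.36. In the mean of the ALS groups minus H they were Abat 0.28, Gabra3 0.32, Gabra5 0.0045, Gabbr1 0.40 and Nlgn2 0.27. By its construction this setting adds the fall of the neuron list to every gene. The cause of the other shifts was not tested.

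The share of calls over all genes that were higher went, with median-ratio scaling, from 87.2% to 67.5% in C minus H, from 83.7% to 58.9% in E minus H and from 79.6% to 53.5% in the mean of the ALS groups minus H. No paired analysis was possible because no mouse number is shared between groups. With 3 mice per group the median standard error of a member was 0.16 on the log2 scale, and Gabrd rests on 9 to 27 reads.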

Other observations

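The other genes of the pathway were also counted for the mean of the 3 ALS model groups against H. Of 24 genes of GABA and glycine metabolism and uptake, 6 rose and 1 fell (median 0.04), and of 19 genes of chloride transport and its kinases, 5 rose and 3 fell (median 0.0038), beside 16.4% and 4.2% of all tested genes. Of 22 inhibitory interneuron identity genes, none rose and 1 fell (median 0.03).

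The members differed in how far mice of a group varied. Glra1, Gabrb2 and Slc6a5 had residual SDs above those of 99.1%, 95.9% and 93.9% of tested genes, and Gabra2, Gabbr1 and Gabrb1 above those of 5.65%, 6.93% and 19.1%.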
